A study of Sus scrofa with 15 samples.

Results

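The 10 genes described here are transcripts that mark macrophages, the resident phagocytes of the space between the seminiferous tubules. They are CD163, CD68, CSF1R, CD14, C1QA, C1QB, C1QC, AIF1, MARCO and MRC1, chosen by name, and all 10 were found among the 30476 genes of the count table. Total testis RNA of 15 male Dutch Landrace Duroc piglets was sequenced as 1 library each, 3 for every one of 5 diet groups. All piglets suckled their sow until day 2 and then received their diet until they were killed on day 21. Piglets in the Sow group drank sow milk from a bowl, and the Soy group a formula based on soy. The Milk group received a cow's milk formula, given with added 17-beta estradiol in the M + E2 group and with added genistein in the M + G group. Genistein is an isoflavone of soy, and its labelled amount was 84 mg/L, which the study's methods give as the concentration in the diet. The Sow group was the reference of the primary comparisons, and M + E2 was the estrogenic positive control. Piglets of the groups were drawn from several litters, and sorted macrophages were not measured.

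Testicular macrophages lie beside the Leydig cells and around the tubules, and are known for clearing debris, for producing factors that act on Leydig cells and for supporting the spermatogonial niche. Their growth and survival depend on CSF1R, the receptor for the cytokines CSF1 and IL34. Resident macrophages carry scavenger and mannose receptors at their surface, secrete the C1q proteins that start the classical complement pathway, and hold many lysosomes. Some of these transcripts occur in other cells too, such as MRC1 in endothelial cells and CD14 in monocytes and some stromal cells.

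In the RefSeq annotation of the pig assembly Sscrofa11.1, the C1q genes lie side by side on chromosome 6, with C1QA at 80586259 to 80589213, C1QC at 80592591 to 80597464 and C1QB at 80601680 to 80606076. CSF1R and CD14 both lie on chromosome 2, CSF1R at 151102138 to 151130311 and CD14 at 142348036 to 142349686. CD163 is on chromosome 5 (63300200 to 63334497), MRC1 on chromosome 10 (44107926 to 44226734), CD68 on chromosome 12 (52874754 to 52877256) and MARCO on chromosome 15 (24502935 to 24541286). AIF1 on chromosome 7 (23711752 to 23731191) overlaps the annotated spans of LST1 and NCR3, and MARCO overlaps LOC100516467. Reads from overlapping genes may have been divided between them in the counting, so AIF1 and MARCO are the less certain assignments. Each value below is a gene total, without separate exons.

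Library totals ran from 6097552 to 9488579 reads, with a median of 8198038. All 10 genes passed the filter on low counts, as did 15634 genes in all. In the column names, 1 Sow and 1 Soy library carry no number and are called unnumbered here. The library Sow 2 stood apart from the others in the study's own quality check and was left out of the fits, so the Sow group had 2 libraries in each test and 3 in each list of values. Levels are given as CPM, a gene's read count scaled to a fixed library total after TMM normalization. Markers of Leydig, Sertoli and germ cells were detected in every group, and so were the macrophage genes, with summed levels of the 10 genes from 326 to 821 CPM across libraries. Because the libraries were made from whole testis, fewer macrophages and less macrophage RNA per cell cannot be told apart in any value below.

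None of the 10 macrophage genes passed the test in any of the 8 comparisons, or in the test for any difference among the 5 diets. The criterion was an adjusted p of 0.05 or less in edgeR's quasi-likelihood test, and in the 8 comparisons also a change of at least 2-fold. By this criterion 5% of all 15634 genes were called for M + E2 relative to Sow, 0.0576% for M + G, 0.0128% for Soy and 0.0192% for Milk relative to Sow, 0.147% for Soy relative to M + E2, 0.064% for any diet, and 0% for each of the 3 comparisons with Milk. Without adjustment, p fell below 0.05 for 5 of the 80 values. These were AIF1 in M + E2 and in M + G relative to Sow, CD68 in Milk relative to Sow, and C1QA and CD68 in M + E2 relative to Milk. The same unadjusted threshold was passed by 33.8%, 23.6%, 12.1% and 17.7% of all genes in those comparisons, in that order. It was passed by 15% of all genes for Soy relative to Sow, 2.6% for M + G and 2.44% for Soy relative to Milk, 13% for Soy relative to M + E2 and 18.1% for any diet. A DESeq2 Wald test also called 0 of the 10 genes in each comparison, while it called 1376 of 15634 genes for M + E2 relative to Sow. By contrast, edgeR's exact test called AIF1 in M + E2 and in M + G relative to Sow. That test called 1886 of 14956 and 956 of 14736 genes in these comparisons.

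Groups that did not overlap were read against the same count over all genes, with the 2 Sow libraries of the fits. Between M + E2 and Sow, 5 of the 10 genes did not overlap, with CD163, CD68 and CSF1R higher and C1QA and AIF1 lower, beside 62.3% of all genes. Between M + G and Sow 2 of the 10 did not overlap (CSF1R higher and AIF1 lower, 53.9% of all genes), between Soy and Sow 2 (CD163 and CD68 higher, 37.3%) and between Milk and Sow 1 (CD68 higher, 31%). The comparisons with Sow share its libraries. No member was without overlap between M + E2 and Milk (17.5% of all genes), M + G and Milk (4.66%), Soy and Milk (4.62%) or Soy and M + E2 (20.6%). In no comparison did the share of members exceed that of all genes.

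The intervals show what size of change the data leave possible. Of the 80 intervals (95%) for the log2 fold change, 41 lay wholly within 2-fold in either direction. MRC1 was bounded in all 8 comparisons, with no limit beyond -0.56 or 0.77 on the log2 scale. CD163 and CD68 were bounded within 2-fold in 7 of 8 comparisons each. C1QC and CD14 were bounded in 5 of 8 each, MARCO in 4, CSF1R in 3 and C1QB in 2. The upper limit for CSF1R reached 1.62. For AIF1 and C1QA no interval was that narrow, and the limits reached -2.07 for AIF1 and -1.85 for C1QA.

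**Figure D1:**
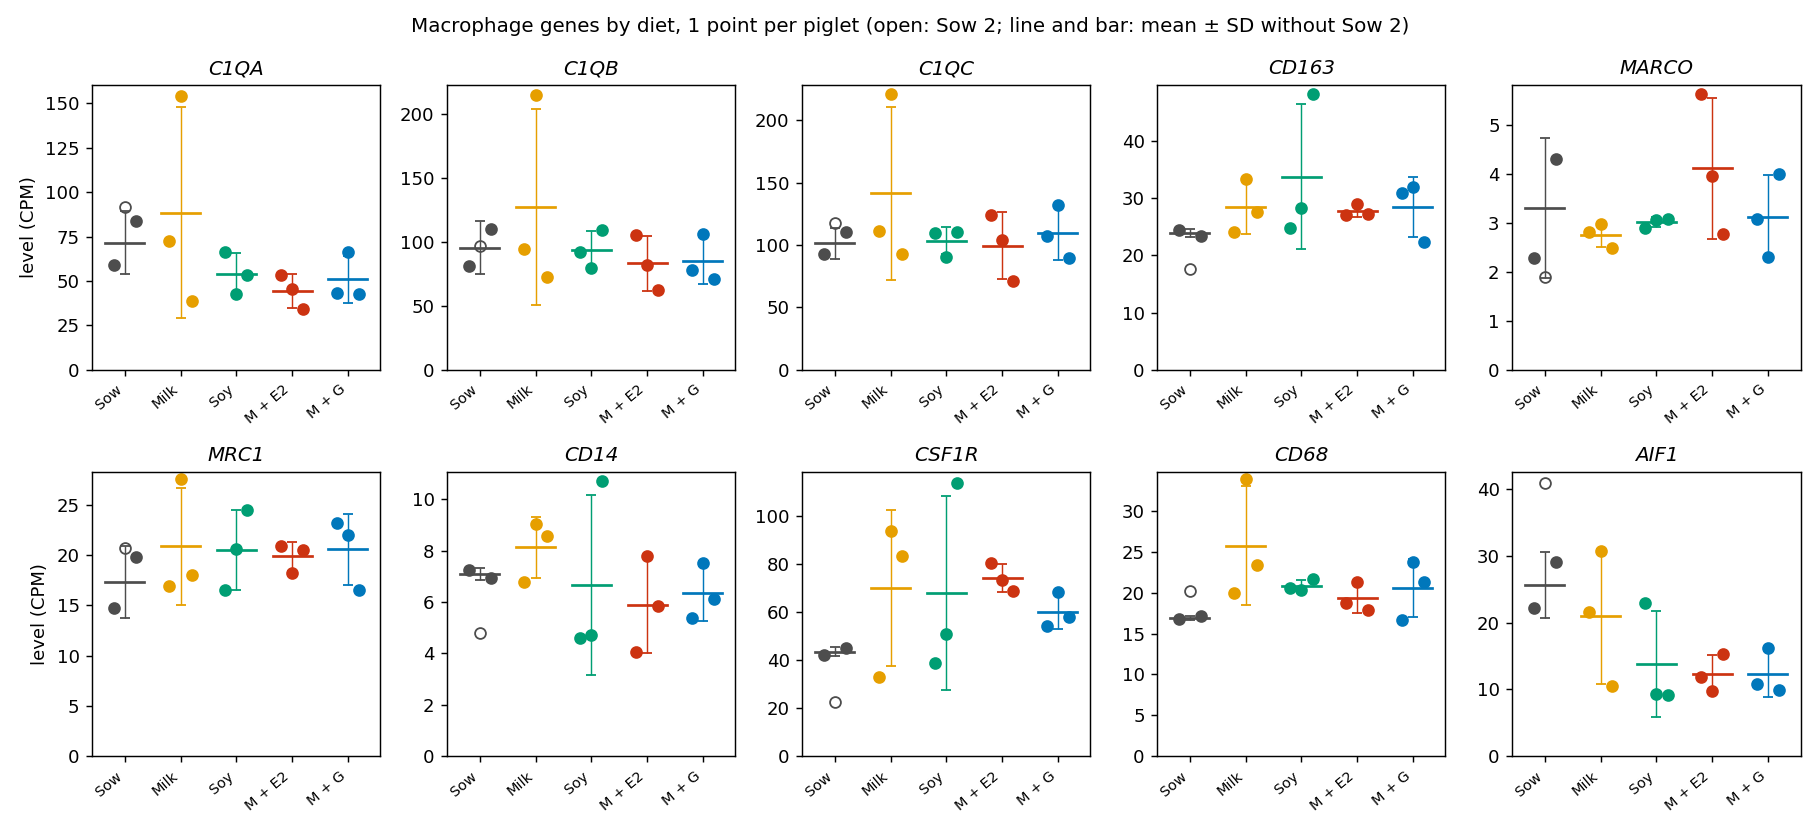
Level of each macrophage gene in CPM (vertical axis, from 0) in the 5 diet groups, with 1 point per piglet, the open point for Sow 2, and lines and bars for the mean ± SD without Sow 2. Milk 2 is the highest library for 5 genes and Soy 3 for 3, and the groups overlap for most genes.

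**Figure D2:**
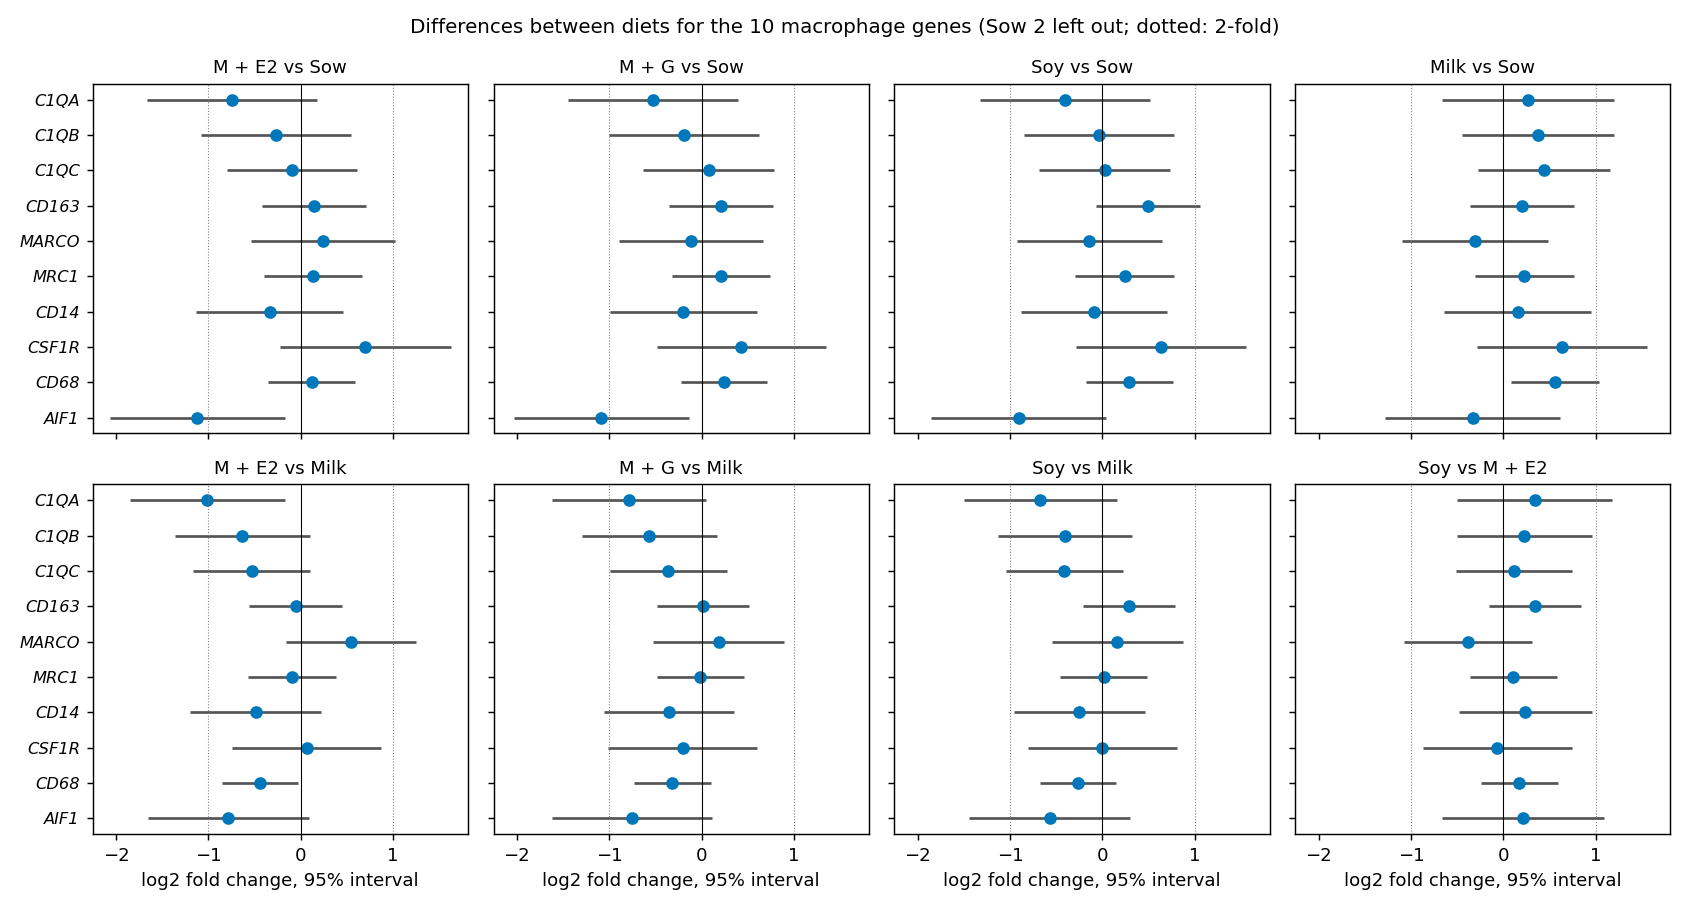
Log2 fold change (point) with its 95% interval (line) for the 10 genes in the 8 comparisons, from edgeR's quasi-likelihood fit of 14 libraries, with dotted lines at 2-fold. Most intervals include 0; those of AIF1 in M + E2 and M + G relative to Sow, CD68 in Milk relative to Sow, and C1QA and CD68 in M + E2 relative to Milk do not.

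The first genes are the C1q chains, C1QA, C1QB and C1QC, whose products assemble into the recognition molecule of the classical complement pathway. C1QA had 58.9, 91.5 and 84.0 CPM in Sow (unnumbered, 2 and 3), 72.6, 154 and 38.4 CPM in Milk (1, 2 and 3) and 66.1, 42.9 and 53.2 CPM in Soy (unnumbered, 2 and 3). It had 53.5, 45.6 and 34.4 CPM in M + E2 and 43.4, 66.4 and 42.9 CPM in M + G. The highest value was in Milk 2, and the Milk libraries spanned nearly the whole range of the study. C1QB had 80.8, 97.2 and 110 CPM in Sow, 94.7, 215 and 72.5 CPM in Milk, 92.0, 79.2 and 109 CPM in Soy, 105, 81.7 and 62.6 CPM in M + E2, and 78.4, 107 and 71.3 CPM in M + G. C1QC had 92.6, 118 and 110 CPM in Sow, 111, 221 and 92.5 CPM in Milk, 110, 90.7 and 110 CPM in Soy, 124, 104 and 70.8 CPM in M + E2, and 107, 132 and 89.5 CPM in M + G. For both genes Milk 2 again stood above all other libraries, and the other 14 libraries of the 5 diets overlapped. Relative to the median of the other 14 libraries, Milk 2 was 2.89-fold higher for C1QA, 2.47-fold for C1QB and 2.03-fold for C1QC.

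The C1q genes were lower in M + E2 than in Milk by point estimate, and 1 library set the size of that difference. In edgeR's quasi-likelihood test the log2 fold change was -1.01 (SE 0.39, 95% interval -1.85 to -0.17) for C1QA, with an adjusted p of 0.240, and it was -0.63 for C1QB and -0.53 for C1QC, with adjusted p of 0.330 and 0.345. Without Milk 2 the values became -0.36, -0.04 and -0.07, with adjusted p of 0.714, 0.961 and 0.933. Without M + E2 3, C1QC was -0.34. Without Milk 3, the lowest Milk library for all 3 genes, C1QA was -1.37 and was called, with an adjusted p of 0.0208 in the same test. That fit called 1256 of 15620 genes in M + E2 relative to Milk, beside 0 of 15634 with Milk 3 kept. Relative to Sow, C1QA was -0.75 in M + E2, with an adjusted p of 0.231 in edgeR, and the groups did not overlap, M + E2 lying lower, and the value was -0.49 without Sow 3. The chains did not keep a fixed proportion. C1QB reads were 0.730 to 0.999 times those of C1QC, a 1.37-fold range over the libraries, and C1QA reads were 0.405 to 0.776 times, a 1.92-fold range. The ratio of C1QA to C1QC was highest in Sow 2 (0.776), Sow 3 (0.762) and Milk 2 (0.698), and lowest in M + G 1 (0.405) and Milk 3 (0.415). Both ratios are of reads within a library and do not depend on its depth.

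Further complement genes were read from a list of 6 that were tested, C2, C3, C4A, SERPING1 and the receptors C3AR1 and C5AR1. C1R and C1S, also on the list, were not found in the count table. The 6 therefore do not stand for the soluble partners of C1q. None passed the test in any comparison, and their median log2 fold change was -0.02 in M + E2 relative to Sow, beside 0.01 for all genes.

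CD163, MARCO and MRC1 are surface receptors of resident macrophages. CD163 takes up complexes of haemoglobin and haptoglobin, MARCO binds bacteria and particles, and MRC1 is the mannose receptor. CD163 had 24.4, 17.6 and 23.4 CPM in Sow (unnumbered, 2 and 3), 24.2, 33.4 and 27.6 CPM in Milk, 24.8, 28.3 and 48.3 CPM in Soy, 27.1, 28.9 and 27.3 CPM in M + E2, and 31.0, 32.0 and 22.4 CPM in M + G. Soy 3 was far above the rest, while the M + E2 libraries lay within 2 CPM of each other. Relative to Sow, CD163 was higher without overlap in Soy and in M + E2, yet the log2 fold change was 0.49 (SE 0.26, interval -0.07 to 1.06) in Soy and 0.15 (SE 0.26, interval -0.42 to 0.71) in M + E2, with adjusted p of 0.355 and 0.722 in edgeR. Without Soy 3 the value in Soy was 0.14, with an adjusted p of 0.871 in edgeR.

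MRC1 was the steadiest of the 10 genes. It had 14.8, 20.7 and 19.8 CPM in Sow, 17.0, 27.6 and 18.0 CPM in Milk, 16.5, 20.6 and 24.5 CPM in Soy, 20.9, 18.2 and 20.5 CPM in M + E2, and 23.2, 22.0 and 16.5 CPM in M + G. The range from the lowest to the highest library was 1.87-fold, and every pair of groups next to each other in mean level overlapped. Its largest log2 fold change was 0.24 (SE 0.25) in Soy relative to Sow, with an adjusted p of 0.593 in edgeR, and it was 0.06 without the unnumbered Sow library, 0.45 without Sow 3, 0.09 without Soy 3 and 0.37 without the unnumbered Soy library. MARCO was counted on only 13 to 39 reads per library, so single values carry a large counting error. Its levels ran from 1.89 CPM in Sow 2 to 5.62 CPM in M + E2 1, with a median of 2.97 CPM, and the M + E2 libraries (5.62, 3.95 and 2.76 CPM) overlapped those of Milk (2.80, 2.97 and 2.49 CPM). The log2 fold change of MARCO in M + E2 relative to Milk was 0.54 (SE 0.33, interval -0.16 to 1.25), with an adjusted p of 0.370 in edgeR, and 0.24 without M + E2 1, with an adjusted p of 0.760.

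Genes for the handling of haem and iron, which follows uptake by CD163, had a negative log2 fold change in M + E2 relative to Sow for 5 of 5 tested, with a median of -0.85 beside 0.01 for all genes, and none passed the test. All 5 were also negative relative to Sow in M + G, Soy and Milk, with medians of -0.33, -0.18 and -0.21. These comparisons share the Sow libraries. HMOX1, FTH1 and HP, also on the list, were not found in the count table. Among 9 further markers of resident macrophages, 0 passed in any comparison. Their median log2 fold change was -0.02 in M + E2, -0.01 in M + G, 0.01 in Soy and -0.01 in Milk, relative to Sow. Their summed level, which weights the abundant genes most, was 133 to 166 CPM in Sow. It was 176 to 299 CPM in Milk and 177 to 337 CPM in Soy. In M + E2 it was 179 to 213 CPM, and in M + G 182 to 263 CPM. All Sow libraries thus lay below all others in this sum, a separation that was not tested.

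CD14 is the co-receptor that hands lipopolysaccharide to the complex of TLR4 and LY96. It was counted on 28 to 94 reads per library and had 7.25, 4.81 and 6.93 CPM in Sow, 6.79, 9.03 and 8.58 CPM in Milk and 4.59, 4.71 and 10.7 CPM in Soy. It had 4.04, 7.78 and 5.85 CPM in M + E2 and 5.38, 7.51 and 6.11 CPM in M + G. Soy held both the highest library and 2 of the 4 lowest, and all neighbouring groups overlapped. The largest difference was a log2 fold change of -0.49 (SE 0.33, interval -1.20 to 0.23) in M + E2 relative to Milk, with an adjusted p of 0.419 in edgeR, and it was -0.30 without M + E2 1.

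Of the 7 tested partners of CD14 in lipopolysaccharide sensing, 1 was called in M + E2 relative to Sow, beside 3.56% of all genes called lower in that comparison. This was LY96, the protein that binds lipopolysaccharide on TLR4, with 12.8, 33.1 and 14.8 CPM in Sow (unnumbered, 2 and 3), 9.74, 10.3 and 3.36 CPM in Milk, 12.5, 5.03 and 6.14 CPM in Soy, 3.03, 4.72 and 3.72 CPM in M + E2, and 5.77, 7.62 and 4.66 CPM in M + G. LY96 fell by 1.91 on the log2 scale (SE 0.45), with an adjusted p of 0.0391 in edgeR, and all M + E2 libraries were below all Sow libraries. IRAK4, a kinase of the same pathway, passed on the adjusted p alone, as 7.97% of all genes did (-0.77, SE 0.21, adjusted p of 0.0447 in edgeR), and stayed under 2-fold. TLR4 itself had 6.18, 5.39 and 5.98 CPM in Sow and 6.06, 4.33 and 5.21 CPM in M + E2, a log2 fold change of -0.29 with an adjusted p of 0.533 in edgeR.

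CSF1R is the receptor on which macrophage survival depends, and it had the widest range of the 10 genes, 5.07-fold from Sow 2 to Soy 3. It had 42.2, 22.4 and 45.0 CPM in Sow (unnumbered, 2 and 3), 33.0, 93.8 and 83.1 CPM in Milk, 38.8, 51.0 and 114 CPM in Soy, 80.2, 73.4 and 68.8 CPM in M + E2, and 54.3, 68.3 and 58.0 CPM in M + G. The M + E2 and M + G libraries were each close together and above every Sow library, whereas Milk and Soy each held libraries within or near the Sow range and others above it. The order of the means was M + E2, Milk, Soy, M + G and Sow, and of the neighbours in that order only M + G and Sow did not overlap. Relative to Sow, the log2 fold change was 0.70 (SE 0.43, interval -0.22 to 1.62) in M + E2, 0.43 (SE 0.43) in M + G, 0.63 (SE 0.43) in Soy and 0.64 (SE 0.43) in Milk, with adjusted p of 0.261, 0.537, 0.426 and 0.522 in edgeR. The value in Soy became 0.03 without Soy 3, and that in Milk became 0.38 without Milk 2 and 0.97 without Milk 1. A fit of the M + E2 and Sow libraries alone gave 0.72 with an SE of 0.14 and an adjusted p of 0.00174 in edgeR, still under 2-fold. In that fit 6020 of 14956 genes passed on the adjusted p alone. Over the 24 alternative settings the log2 fold change of CSF1R in M + E2 relative to Sow ran from 0.19 to 1.02.

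The ligands of CSF1R differed in pattern. CSF1 had 8.19, 7.14 and 12.2 CPM in Sow, 10.6, 33.8 and 20.0 CPM in Milk, 16.0, 18.6 and 37.8 CPM in Soy, 27.0, 24.9 and 17.5 CPM in M + E2, and 17.0, 26.6 and 19.0 CPM in M + G. All Soy, M + E2 and M + G libraries lay above all Sow libraries, and Milk 1 lay within the Sow range. Its log2 fold change relative to Sow was 1.11 (SE 0.46) in M + E2, 1.00 (SE 0.46) in M + G, 1.03 (SE 0.46) in Milk and 1.24 (SE 0.46) in Soy, with adjusted p of 0.113, 0.209, 0.403 and 0.322 in edgeR, so that none passed. IL34 had 26.2, 21.0 and 18.9 CPM in Sow and 32.6, 38.4 and 28.7 CPM in M + E2, which did not overlap, with a log2 fold change of 0.49 (SE 0.23) and an adjusted p of 0.144 in edgeR. SPI1, the transcription factor that drives CSF1R in myeloid cells, ranged from 11.7 CPM in Sow 2 to 28.7 CPM in Milk 2 and had a log2 fold change of 0.22 in M + E2 relative to Sow, with an adjusted p of 0.605 in edgeR. PTPRC, the leukocyte common antigen CD45, was also highest in Milk 2 (53.2 CPM), and its log2 fold change in M + E2 relative to Sow was 0.01 (interval -0.60 to 0.63).

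CD68 encodes a glycoprotein of the lysosomes and late endosomes of macrophages. It had 16.8, 20.3 and 17.1 CPM in Sow (unnumbered, 2 and 3), 19.9, 33.9 and 23.4 CPM in Milk, 20.6, 20.4 and 21.6 CPM in Soy, 18.7, 21.3 and 17.9 CPM in M + E2, and 16.7, 23.7 and 21.3 CPM in M + G. Milk 2 was the highest library, and the Milk, Soy and M + E2 libraries lay above both Sow libraries of the fit but not all above Sow 2. The log2 fold change relative to Sow was 0.56 (SE 0.22, interval 0.09 to 1.03) in Milk, with an adjusted p of 0.392 in edgeR, and it became 0.32 without Milk 2. In M + E2 relative to Milk it was -0.44 (SE 0.19, interval -0.85 to -0.02), with an adjusted p of 0.266 in edgeR, and -0.20 without Milk 2.

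Lysosomal enzymes were the list with most calls. In M + E2 relative to Sow, 3 of 9 tested fell, beside 3.56% of all genes called lower, and 8 of 9 had a negative log2 fold change, with a median of -0.72 beside 0.01 for all genes. CTSL, a cathepsin found in most cells, had 30.9, 66.4 and 34.8 CPM in Sow and 11.7, 8.80 and 6.80 CPM in M + E2, and fell by 1.92 on the log2 scale (SE 0.42, adjusted p of 0.0374 in edgeR). CTSS, a cathepsin of antigen-presenting cells, had 94.8, 140 and 96.7 CPM in Sow and 52.2, 35.1 and 41.8 CPM in M + E2, and fell by 1.22 (SE 0.34, adjusted p of 0.0468 in edgeR). LIPA, the lysosomal acid lipase that is also abundant in steroid-making cells, had 869, 1144 and 737 CPM in Sow and 371, 413 and 405 CPM in M + E2, and fell by 1.09 (SE 0.28, adjusted p of 0.0427 in edgeR). All M + E2 libraries lay below all Sow libraries for each of these enzymes. Each of these calls, and that of LY96, was lost when either Sow library of the fit or any 1 M + E2 library was left out, and also without Soy 2, M + G 1 or M + G 3. Under a replicate block the log2 fold changes were -2.33 for CTSL, -1.44 for CTSS, -1.17 for LIPA and -2.31 for LY96, with adjusted p of 0.0585 to 0.101 in edgeR. With the ribosomal protein mean described below as a covariate they were -1.41, -0.53, -0.65 and -0.91 in the same order, with adjusted p of 0.221 to 0.423 in edgeR. In the same comparison the summed level of the Leydig markers was 13022 to 13942 CPM in M + E2 and 19260 to 19933 CPM in Sow, and the part of this in the enzyme values was not tested. No lysosomal enzyme passed in any other comparison.

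AIF1, also called IBA1, is a calcium-binding protein of the macrophage cytoskeleton, and it had the largest log2 fold change of the 10 genes. It had 22.2, 40.8 and 29.1 CPM in Sow (unnumbered, 2 and 3), 21.5, 30.7 and 10.6 CPM in Milk, 23.0, 9.30 and 9.10 CPM in Soy, 11.8, 9.82 and 15.3 CPM in M + E2, and 10.8, 16.2 and 9.99 CPM in M + G. All M + E2 and M + G libraries lay below all Sow libraries, and Milk and Soy each had libraries at both levels. The log2 fold change relative to Sow was -1.12 (SE 0.44, interval -2.07 to -0.17) in M + E2 and -1.09 (SE 0.44, interval -2.03 to -0.14) in M + G, with adjusted p of 0.100 and 0.170 in edgeR. In Soy it was -0.91 (SE 0.44) and in Milk -0.33 (SE 0.44), with adjusted p of 0.335 and 0.738 in edgeR, and these became -1.49 without the unnumbered Soy library and -0.01 without Milk 3. AIF1 passed the test when all 3 Sow libraries were kept, at -1.31 in both M + E2 and M + G, with adjusted p of 0.0245 and 0.0377 in edgeR. In that setting 2767 and 1585 of all 15328 genes were called in these comparisons.

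AIF1 moved with the level of ribosomal protein transcripts, a measure that separated libraries across diets. The mean level of 52 ribosomal protein genes was 9.58 to 10.5 log2 CPM in 6 libraries (all 3 Sow libraries, Milk 1, Milk 2 and the unnumbered Soy library) and 8.35 to 9.14 log2 CPM in the other 9. AIF1 had 21.5 to 40.8 CPM in the first and 9.10 to 16.2 CPM in the others, without overlap. The share of all genes without overlap between these sets is not given here, so the separation is not read as particular to AIF1. Within the 6 libraries Pearson's r of AIF1 with this mean was 0.753 (Spearman's rho 0.600, exact permutation p 0.0806), and within the 9 it was 0.817 (rho 0.617, exact permutation p 0.0139, adjusted over 20 relations 0.278). Without its 2 farthest libraries the latter r was -0.02, so that it rested on those libraries. With the ribosomal protein mean as a covariate, the log2 fold change of AIF1 was -0.11 (SE 0.26, interval -0.67 to 0.45) in M + E2 and -0.13 (SE 0.25) in M + G relative to Sow, with adjusted p of 0.894 and 0.881 in edgeR. All Sow libraries were in the high set and all M + E2 and M + G libraries in the low set, so that diet and the level of these transcripts cannot be told apart in those comparisons. C1QA had 58.9 to 154 CPM in the high set and 34.4 to 66.4 CPM in the low set, and within the sets its r was 0.04 and 0.07 (exact permutation p 0.900 and 0.850). The ratio of C1QA to C1QC reads was at least 0.602 in each library of the high set and at most 0.503 in each library of the low set. How many other ratios separate the sets is not given either, so this is not read as particular to C1QA.

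**Figure D3:**
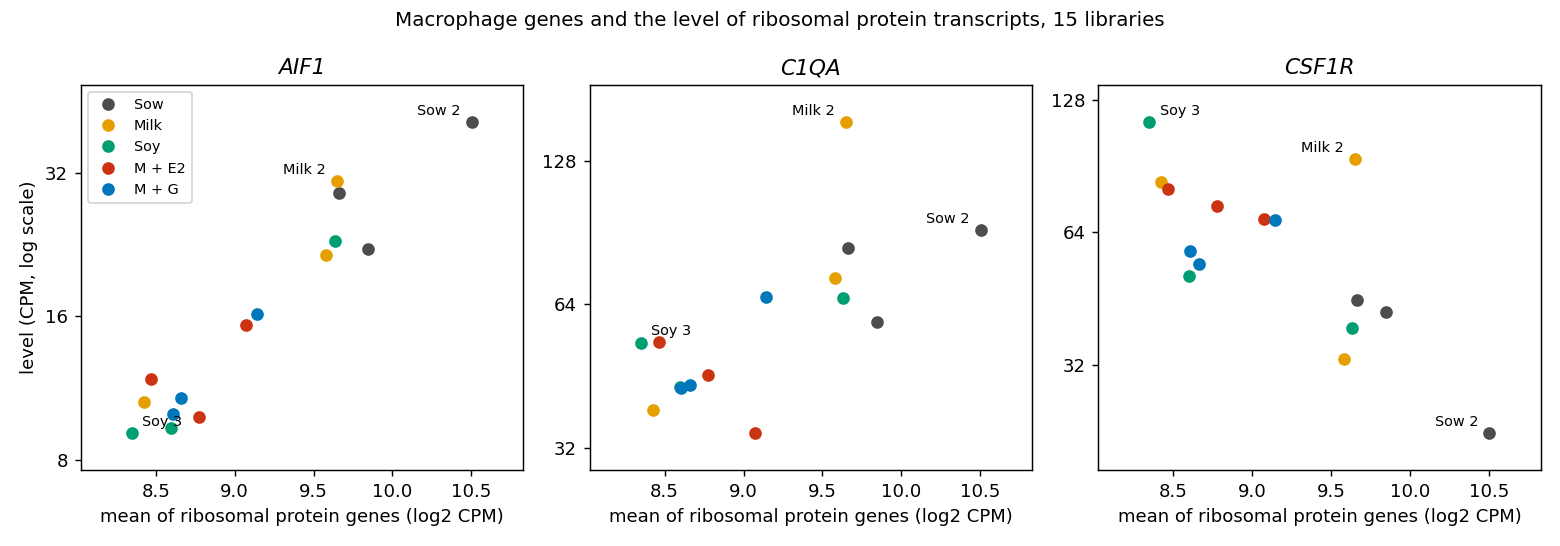
Level of AIF1, C1QA and CSF1R in CPM (vertical, log scale) against the mean of 52 ribosomal protein genes in log2 CPM (horizontal), with 1 point per library coloured by diet. AIF1 is at 21.5 CPM or more in the 6 libraries to the right and at 16.2 CPM or less in the 9 to the left; CSF1R overlaps between the sets.

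Across libraries the 10 genes did not vary as 1 block. Of the 45 pairs, 5 correlated with an adjusted p of 0.05 or less (log2 CPM over 15 libraries, two-sided permutation test, Benjamini-Hochberg over the 45 pairs), and all 5 were positive. The permutations ran over all libraries without regard to diet. The share of passing pairs among all genes is not given here, so the 5 pairs are not read as particular to macrophage genes. C1QB and C1QC had the highest r, 0.954 (rho 0.886, permutation p 4e-05, adjusted p 0.00113), which was 0.828 without the 2 libraries farthest from the median and 0.968 for deviations from the diet means. C1QA had an r of 0.888 with C1QB (rho 0.839, permutation p 5e-05, adjusted p 0.00113) and 0.852 with C1QC (rho 0.854, permutation p 9e-05, adjusted p 0.00135). Without their 2 farthest libraries, Sow 2 and Milk 2, these were 0.813 and 0.687. C1QA also correlated with AIF1 (r 0.806, rho 0.771, permutation p 0.00022, adjusted p 0.00234, and 0.750 without 2 libraries).

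The remaining pair was CD163 and CSF1R, with an r of 0.820 (rho 0.721, permutation p 0.00026, adjusted p 0.00234). It was 0.639 without Sow 2 and Soy 3 and 0.829 for deviations from the diet means. CSF1R and AIF1, both used as general macrophage markers, had a negative r of -0.60 (rho -0.50, permutation p 0.0185), which did not pass (adjusted p 0.0885) and was -0.31 without Sow 2 and Soy 3. Without Sow 2, 6 pairs passed, the additional pair being CD163 and MRC1 (r 0.743, rho 0.793, permutation p 0.00159, adjusted p 0.0119).

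**Figure D4:**
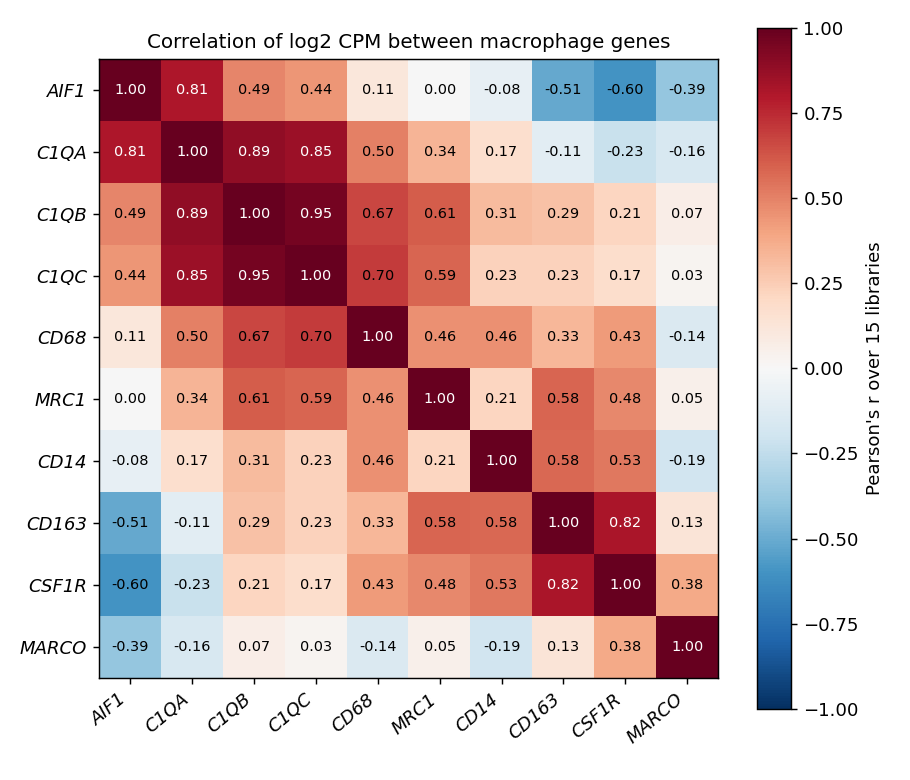
Pearson's r of log2 CPM over 15 libraries for each pair of macrophage genes, from blue (negative) to red (positive). The C1q genes form 1 group with r of 0.85 to 0.95, AIF1 has an r of 0.81 with C1QA, and CD163 and CSF1R form another pair with an r of 0.82.

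CSF1R and CD163 followed the markers of endothelial cells, though not these markers alone. The summed level of PECAM1, VWF, CDH5 and KDR was 213 to 355 CPM in Sow, 411 to 976 CPM in Milk, 353 to 1081 CPM in Soy, 536 to 710 CPM in M + E2 and 561 to 662 CPM in M + G, and none of these 4 markers was at 0 in all libraries. CSF1R had an r of 0.923 with the log2 of this sum (rho 0.896, permutation p 1e-05, the smallest the resampling can give, adjusted p 0.0002 over 40 relations). It was 0.900 without the 2 farthest libraries, 0.886 without Milk 2 and Soy 3, and 0.921 for deviations from the diet means. CD163 had an r of 0.856 (rho 0.839, permutation p 3e-05, adjusted p 0.0004), and 0.820, 0.802 and 0.886 in the same checks. C1QB had an r of 0.302 (rho 0.186, permutation p 0.274, adjusted p 0.406) with the same sum. With the summed peritubular markers ACTA2, MYH11, CNN1 and DES, CD163 had an r of 0.833 (rho 0.654, permutation p 7e-05, adjusted p 0.0007). CSF1R had 0.716 with them (rho 0.65, permutation p 0.0028, adjusted p 0.0159). CD14, CD68 and MRC1 also passed there, with r of 0.721, 0.665 and 0.628. Without Milk 2 and Soy 3 the r with the peritubular sum was 0.668 for CD163 and 0.531 for CSF1R. In that check it was 0.478 for CD14, 0.543 for CD68 and 0.258 for MRC1. For MRC1 rho over all libraries was 0.386 and did not pass. With the ribosomal protein mean CSF1R had an r of -0.734 (permutation p 0.00173, adjusted p 0.0128). The share of all genes that followed these measures as closely is not given here. The part of endothelial or other cells in the levels of CSF1R and CD163 was not tested.

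**Figure D5:**
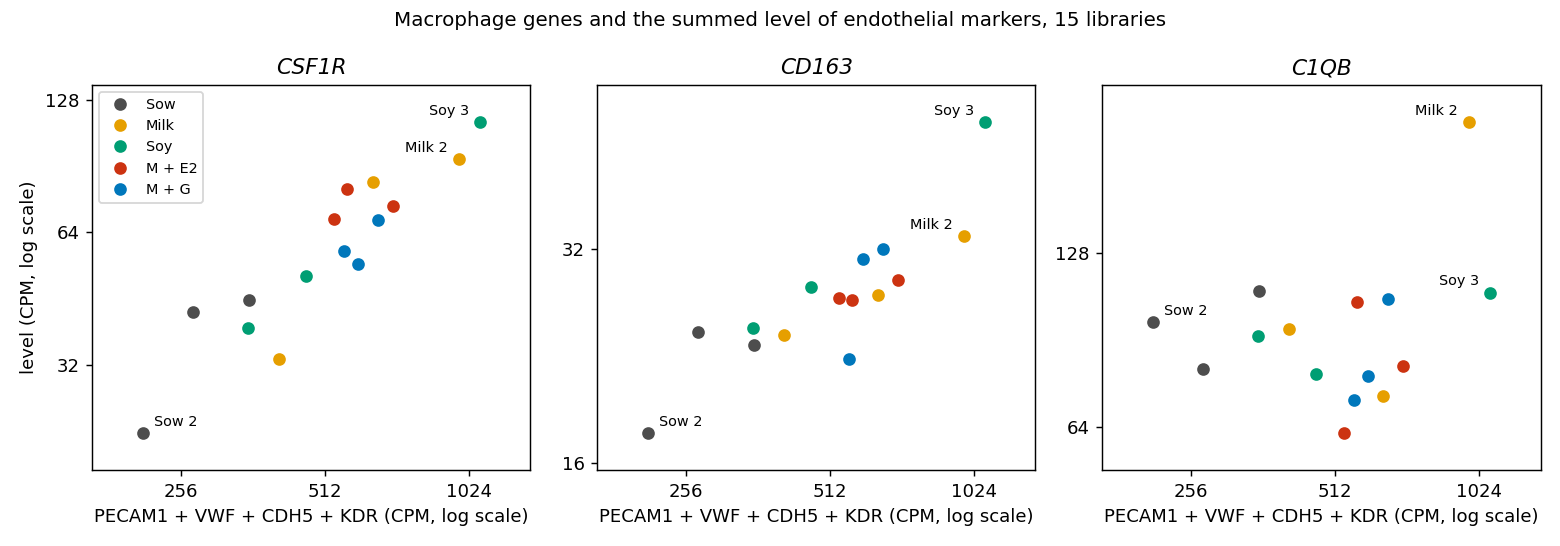
Level of CSF1R, CD163 and C1QB in CPM (vertical, log scale) against the summed level of PECAM1, VWF, CDH5 and KDR in CPM (horizontal, log scale), with 1 point per library coloured by diet. CSF1R and CD163 rise along the axis from Sow 2 to Soy 3, and C1QB shows no such rise outside Milk 2.

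The libraries in which macrophage genes were highest also differed in other cell type markers. Milk 2 had the highest level of 5 of the 10 genes (C1QA, C1QB, C1QC, CD68 and MRC1) and the highest sum, 821 CPM, beside 326 to 504 CPM in the other 14. Soy 3 had the highest level of CD163, CSF1R and CD14. The summed level of the 4 peritubular markers was 2221 CPM in Milk 2, 2967 CPM in Soy 3 and 1582 CPM in M + G 2, and 174 to 620 CPM in the other 12 libraries. The summed level of the 5 Leydig markers was 10393 CPM in Milk 2, the lowest of all libraries, and 18096 CPM in Soy 3. The summed level of the pan-leukocyte genes was highest in Milk 2, at 302 CPM, and was 170 CPM in Milk 1, below all Sow libraries (184 to 221 CPM), and 0 of 8 passed in any comparison. T cell genes summed to 7.77 to 20.0 CPM and mast cell genes to 5.97 to 21.3 CPM across libraries, and none of either list passed. The part of tissue composition in the macrophage values of Milk 2 and Soy 3 was not tested.

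Among genes outside the 10, those whose profile over the 14 libraries of the fit was most like the mean profile of the macrophage genes were SLC41A2 (r 0.908), CAV1 (0.900), CD40 (0.894), CYYR1 (0.892), ID2 (0.889), DIO2 (0.884), TPD52 (0.883), GEM (0.873), CD47 (0.873) and RASL11A (0.870). CD40 is a co-stimulatory receptor of antigen-presenting cells, CD47 is a surface protein that restrains phagocytosis, and CAV1 is a caveolar protein abundant in endothelium. Without Milk 2 these r values were 0.606 to 0.829. The single genes had different nearest neighbours, a choice made after the values were seen. C1QB was nearest to C1QC (r 0.955) and C1QA (0.922), AIF1 was nearest to ARL6IP6 (0.979) with the ribosomal protein gene RPS3 (0.969) among its first 5, and CSF1R had the endothelial gene VWF (0.931) among its first 5. These values describe shared profiles over 14 libraries and carry no test.

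The remaining gene lists around macrophage function showed no call in any comparison. In M + E2 relative to Sow the median log2 fold change was -0.43 for 5 Fc receptors and adapters, -0.15 for 5 genes of class II antigen presentation, 0.22 for 7 myeloid transcription factors and -0.11 for 8 pan-leukocyte genes, beside 0.01 for all genes. In M + E2 relative to Milk, 8 of the 10 macrophage genes had a negative log2 fold change with a median of -0.46, beside -0.03 for all genes, and without Milk 2 these were 6 of 10 and -0.05. In Milk relative to Sow, 8 of the 10 had a positive one with a median of 0.24, beside 0.00 for all genes, and without Milk 2 these were 4 of 10 and -0.02, so that the direction turned. The last counts share the Milk libraries.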

How the data were processed

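The authors trimmed single-end reads by base quality and mapped them with the CLC Genomics Workbench, first to a curated pig gene library and then to the pig genome; the deposited values are raw read counts per gene and library. Short reads counted on a gene library can be split between overlapping or similar genes. From these counts, levels were computed as CPM with TMM factors over 15 libraries, with a prior count of 1 for log2 values. Genes were filtered by filterByExpr (minimum count 10) and fitted in edgeR 4.0.16 (R 4.3.3, quasi-likelihood F test, Benjamini-Hochberg over 15634 genes) in 1 model of 5 diets without Sow 2, which the study also left out. Calls needed an adjusted p of 0.05 and, except in the test of any diet, a 2-fold change. Library totals were 6097552 to 9488579 reads, which limits genes of few reads such as MARCO. Libraries of 1 group differed by more than sampling noise (chi-square of 8.37 to 82.4 per degree of freedom). Nothing in the sources used here says whether libraries were prepared in batches. The script was tested on simulated data with changed genes.

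The 10 genes and the gene lists were chosen with earlier results of these data known. Named beyond the 10 were list genes that passed in a comparison (up to 3 per list), the receptors and ligands around the members, and the 10 genes of the most similar profile. Members of the lists without a count in the table were not analysed here. Correlations used permutation tests with 100000 resamples or, within sets under 10 libraries, exact permutation tests. Alternatives were another scaling (DESeq2 1.42.0 size factors), other filters, the Wald test of DESeq2, the exact test of edgeR, a fit of 2 groups, all Sow libraries, each library left out, and a replicate block. Same-numbered libraries of Milk and M + G deviated together (r of 0.233 to 0.510 across genes in 3 pairs), and those of Milk and M + E2 did not (-0.34 to -0.06). Single values were as large for other groups, with -0.03 to 0.50 for Sow and Soy and -0.48 to 0.21 for Milk and Soy. The labels name no shared litter or day, so the numbers are not read as a pairing.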

Additional observations from a re-analysis of the deposited data

Results flagged for a closer look

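Transcripts of neutrophils, another phagocyte, were high in Sow 2, the library that no comparison used. The summed level of S100A8, S100A12, CSF3R and MPO was 77.8 CPM there, beside 20.9 and 21.2 CPM in the other Sow libraries and 7.07 to 18.4 CPM in the 12 libraries of the other diets. S100A8 (43.1 CPM) and S100A12 (28.3 CPM) made up most of the sum, while CSF3R (1.75 CPM) and MPO (4.66 CPM) were within the range of the other libraries. In the same library AIF1 was at its highest (40.8 CPM) and CD163, CSF1R and MARCO were at their lowest (17.6, 22.4 and 1.89 CPM).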

How the results depend on the processing

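The count of macrophage genes called was 0 in each of the 8 comparisons and in the test of any diet, and stayed 0 under all but 11 of 222 recomputed counts, each of which gave 1. In M + E2 relative to Sow the count was 1 (AIF1) with all 3 Sow libraries (adjusted p 0.0245), in edgeR's exact test (2.39e-05), in a fit of only the 2 groups (0.00193), and with all 3 Sow libraries and no Milk 2 (0.0187). In the same order, 2767 of 15328, 1886 of 14956, 1846 of 14956 and 2856 of 15617 genes were called. Leaving out 1 library gave 0 to 1 in that comparison, with AIF1 called without Milk 3 (0.0462) or without the unnumbered Soy library (0.0493). Those fits called 1533 of 15620 and 1326 of 15622 genes. In M + G relative to Sow the count was 1 (AIF1) with all 3 Sow libraries (0.0377), in the exact test (0.00236), in a fit of 2 groups (0.0260), and with all 3 Sow libraries and no Milk 2 (0.0313). These settings called 1585 of 15328, 956 of 14736, 793 of 14736 and 1693 of 15617 genes. In M + E2 relative to Milk, leaving out 1 library gave 0 to 1, with C1QA called without Milk 3, beside 1256 of 15620 genes. The cause was not tested. None of the 17 log2 fold changes that were followed for single genes changed sign. Without Milk 2, however, the macrophage genes with a positive value went from 8 to 4 of 10 in Milk relative to Sow, from 2 to 6 in M + G relative to Milk, and from 3 to 6 in Soy relative to Milk. AIF1 ranged from -1.43 to -0.11 in M + E2 and from -1.46 to -0.13 in M + G relative to Sow, both nearest to 0 with the ribosomal protein mean as a covariate, which was chosen after seeing the data, as were the fits with all 3 Sow libraries and no Milk 2 and of Milk and M + G alone. With a replicate block over the libraries whose columns carry a number, 0 of the 10 genes were called in every comparison, and the paired fit of Milk and M + G alone also called 0. The number of all genes called depended far more on the setting: 781 in M + E2 relative to Sow became 2 to 2856, and 9 in M + G relative to Sow became 0 to 1693. The correlated pairs numbered 5 with a prior count of 1 or 5 and 6 without Sow 2.

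The fits had 2 or 3 piglets a group and 1 shared estimate of the spread. Changes of 2-fold could not be bounded in any comparison for AIF1 and C1QA. For C1QB, CSF1R, MARCO, C1QC and CD14 they were bounded in only 2 to 5 of the 8 comparisons. Counts of 13 to 39 reads limit MARCO.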
